A study of Lachancea kluyveri with 9 samples.

Results

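The series asks which genes are haploid-specific, that is, transcribed in both mating types of a budding yeast and low once a cell carries both mating-type alleles. In Saccharomyces cerevisiae an a-type and an alpha-type homeodomain protein, which come together in a/alpha cells, repress such genes. Many of them there encode parts of the pheromone response or proteins that keep haploid cells out of meiosis. The yeast studied here is Lachancea kluyveri, a more distant relative of the same family.

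Of 5189 gene models in the deposited count table, 61 (1.18%) were high alike in both haploid types. They were chosen on the measured values themselves. Counts were divided by median-of-ratios size factors, and 10 was added to each group mean. A member had ratios of at least 2 for a over a/alpha and for alpha over a/alpha cells, and a ratio of a to alpha between 0.5 and 2. All 6 haploid libraries also had to lie above all 3 a/alpha libraries. The levels and ratios below are therefore a description of what the choice found, and carry no test.

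The groups were a cells (strain yLB76), alpha cells (strain yLB77) and a/alpha cells (strain FDy22), each with 3 libraries of poly(A) RNA from cultures grown at 30 °C in YPED medium to an optical density of 0.5 to 1. All 3 strains are labelled wild-type prototrophs. Each cell type was 1 strain, so strain and cell type cannot be told apart. The files pair no gene name with a model, so members are given by chromosome and position in the deposited table, no roles are assigned to them, and the cell type labels could not be checked against the mating-type genes. The sources used here do not give the genome build of these positions.

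Library totals ran from 6379488 to 8908799 counts in a cells and from 6929356 to 8675311 in alpha cells. In a/alpha cells they were 743244, 10776548 and 9164901 in replicates 1, 2 and 3. In the shallow a/alpha replicate 1 a count of 1 equals 8.44 normalised counts, and the limit that a count of 0 allows, 3 counts, equals 25.3. In the other 8 libraries that limit lay between 1.73 and 2.78 normalised counts. Such limits cover counting error only. Reads were counted with strand setting 1 from a kit that marks strand, for which the opposite setting is usual. The deposited table does not settle which strand was counted, so each level may be that of the strand opposite to the model.

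The label of the group held for the values that chose it. The median ratio over a/alpha cells was 3.88 for a cells and 3.01 for alpha cells, against 1.01 for both over all models. The 2 haploid types were close to each other, with a median a to alpha ratio of 1.21 and extremes of 0.604 and 1.96. The smaller of a member's 2 haploid to a/alpha ratios ran from 2.00 to 36.4. It was at least 10 in 11 members, at least 5 in 17 and at least 3 in 28, and lay between 2 and 2.5 in another 28. Most of the group thus lay nearer to its lower limit than to its leading members. Over all models, 1.43% had both ratios at or above 2, and 6.61% had all haploid libraries above all a/alpha libraries.

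**Figure D1:**
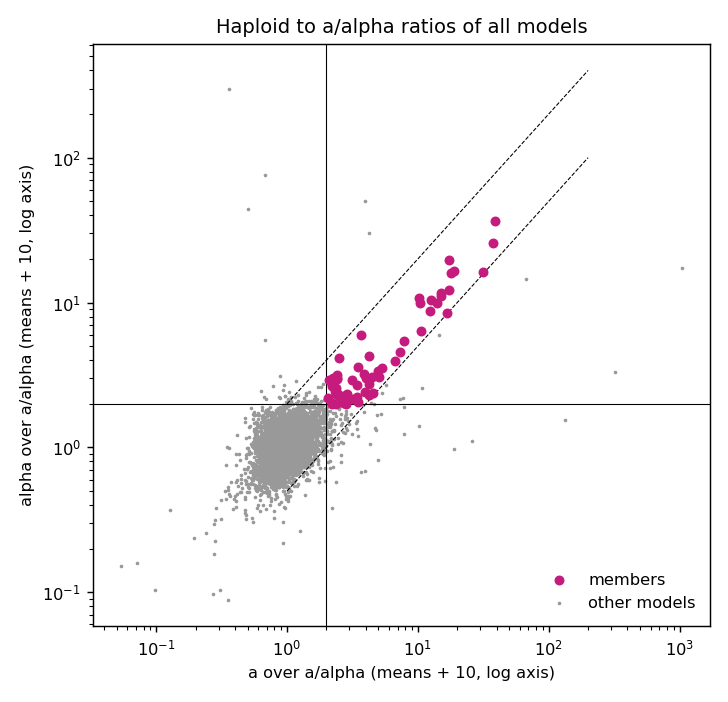
Ratio of the a mean (x axis) and of the alpha mean (y axis) to the a/alpha mean, with 10 added to each mean and both axes logarithmic, for all 5189 models. Pink points are the 61 members, solid lines mark the ratio of 2 and dashed lines an a to alpha ratio of 0.5 and 2, and the members spread along the diagonal from the corner at 2 up to ratios of 39.2 and 36.4.

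Of each library's counts the members together took 1.57% ± 0.15 (SD, n = 3) for a cells, 1.05% ± 0.14 for alpha cells and 0.159% ± 0.026 for a/alpha cells. More than any other member, a model on chromosome D set these shares. Without it the shares were 0.675% ± 0.044 for a, 0.433% ± 0.020 for alpha and 0.115% ± 0.0066 for a/alpha cells. The share stayed above the a/alpha libraries in every haploid library either way. These are shares of raw totals, with no size factors. The chromosome D model took 0.822% to 1.03% in a libraries and 0.479% to 0.705% in alpha libraries. With size factors its a to alpha ratio was 1.12. In bulk cultures, fewer cells that express a gene and less RNA per cell cannot be told apart.

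The leading member lay on chromosome G from 1653751 to 1655106 (minus strand, augustus_masked-SAKL0G-processed-gene-16.177). It stood at 782, 868 and 952 normalised counts in a replicates 1, 2 and 3, at 718, 756 and 941 in alpha cells, and at 8.44, 16.2 and 12.5 in a/alpha cells. The haploid types overlapped each other and lay far above the a/alpha libraries, where replicate 1 held a count of 1. Its ratios were 39.2 for a and 36.4 for alpha cells, and its a/alpha mean was 1.48% of its haploid mean.

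Both of the next members were minus-strand models on chromosome B, with 918 bp between them and no model in between. The model from 410581 to 411792 stood at 3601, 2025 and 2169 normalised counts in a cells, at 2189, 1577 and 1525 in alpha cells, and at 50.6, 71.0 and 55.3 in a/alpha cells. The model from 412711 to 413379 stood at 1397, 1962 and 1420.1 in a cells, at 1557, 1888 and 2022 in alpha cells, and at 59.1, 97.6 and 93.6 in a/alpha cells. Neighbours on 1 strand, they stood at opposite sides of an even balance, with a to alpha ratios of 1.47 and 0.875. Their ratios to a/alpha cells were 37.8 and 17.2 for a and 25.7 and 19.6 for alpha cells. The model upstream of this pair had ratios of 0.651 and 0.817 and was no member.

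Chromosome H held the next member by rank, on the plus strand from 1736625 to 1737671. Its values were 1861, 1484 and 1739 normalised counts in a cells, 1495, 1517 and 1451 in alpha cells, and 84.4, 62.3 and 94.2 in a/alpha cells. The alpha libraries were close to each other, at 1488 ± 33.4 (SD, n = 3), and the haploid types overlapped. A minus-strand model on chromosome E from 961219 to 961914 was less even. It stood at 1212, 1677 and 1503 normalised counts in a cells, at 610.1, 1089.8 and 555 in alpha cells, and at 25.3, 48.5 and 36.9 in a/alpha cells. All 3 a libraries lay above all 3 alpha libraries there. Its a to alpha ratio of 1.94 lay just inside the limit of 2, and its smaller ratio, 16.2, was the largest among members that leaving out some library removed.

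The most abundant member was the minus-strand model on chromosome D from 991105 to 992754 (augustus_masked-SAKL0D-processed-gene-10.7). It stood at 53998, 43547 and 45815 normalised counts in a cells, at 45214, 46285 and 37065 in alpha cells, and at 1334, 3836 and 2874 in a/alpha cells. Its a/alpha libraries varied, with a mean of 2681 ± 1262 (SD, n = 3), and the shallow replicate 1 was lowest with 158 counts of it. The ratios were 17.8 for a and 15.9 for alpha cells. Low relative to haploid cells, the model remained abundant in a/alpha cells in absolute terms, at 1625 normalised counts per kb of coding length, where the median over all models was 202.

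**Figure D2:**
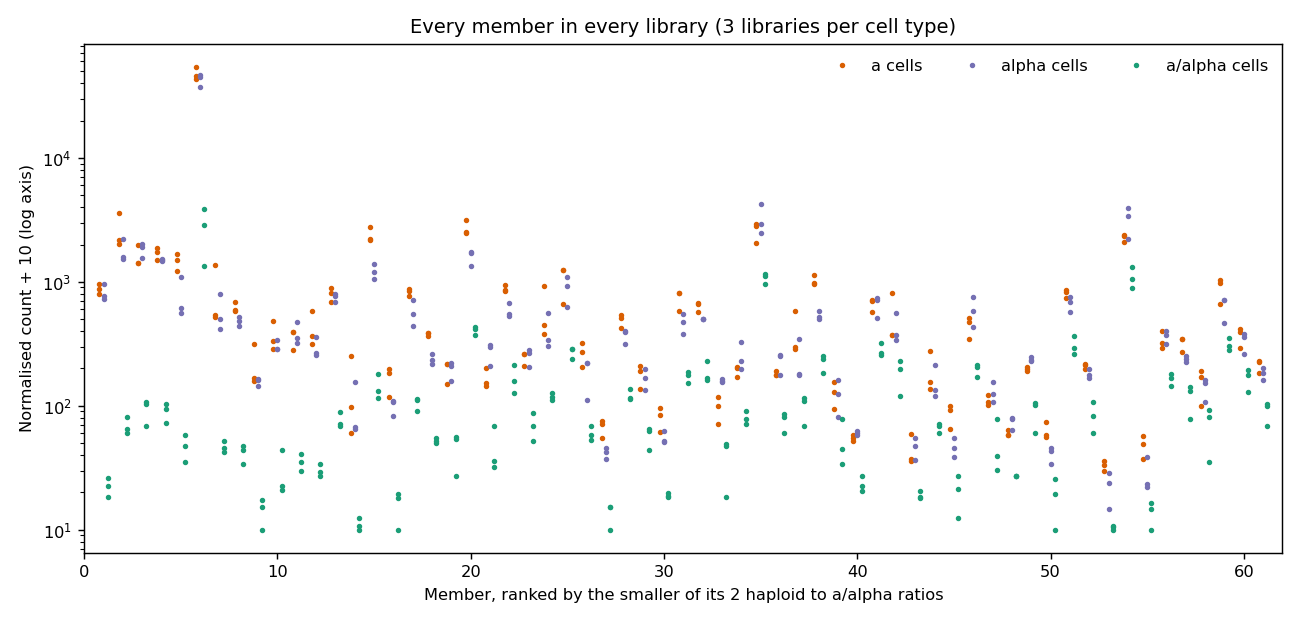
Normalised count plus 10 on a logarithmic y axis for the 61 members, ordered on the x axis by the smaller of their 2 haploid to a/alpha ratios, with a point for each of the 9 libraries. The a and alpha points run together, the a/alpha points lie below them for every member as the choice demands, and the gap narrows from the left (36.4) to the right (2.00).

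Among the first 10 by rank, the remaining models lay on chromosomes C, F and B. The minus-strand chromosome F model from 1248612 to 1250531 stood at 680.2, 569.6 and 586 normalised counts in a cells, at 477, 514 and 427 in alpha cells, and at 33.8, 37.5 and 23.7 in a/alpha cells. It was even within each cell type, and its a libraries lay above its alpha libraries. The plus-strand chromosome B model from 512549 to 513643 stood at 472, 276 and 325 in a cells, at 327, 279 and 279 in alpha cells, and at 33.8, 10.97 and 12.5 in a/alpha cells. The high a/alpha value there is replicate 1 with 4 counts, and the haploid types overlapped.

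Members of chromosome C overlapped each other in places. The minus-strand model from 539308 to 542772 stood at 1355, 529 and 508 normalised counts in a cells, at 791, 404 and 487 in alpha cells, and at 42.2, 35.2 and 32.3 in a/alpha cells. Nested in it on the plus strand is the model from 541385 to 541675, at 239.9, 87.3 and 50.6 in a cells, at 146, 56.9 and 54.4 in alpha cells, and at 0, 2.31 and 0.659 in a/alpha cells. Replicate 1 was the highest library of both models in both haploid types. The nested model was the lowest of all members in a/alpha cells relative to its haploid mean, at 0.934%, from 0, 4 and 1 counts.

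A run of 3 members in a row lay on chromosome C between 226825 and 230997. Its first, the minus-strand model from 226825 to 228351, stood at 269, 127 and 146 normalised counts in a cells, at 202, 124 and 111 in alpha cells, and at 59.1, 61.8 and 50.7 in a/alpha cells, with ratios of 2.83 and 2.32. The plus-strand model from 228916 to 229903, in 2 coding parts, starts 564 bp away in the opposite direction. It stood at 304, 158 and 147 in a cells, at 155, 134 and 152 in alpha cells, and at 0, 7.50 and 5.27 in a/alpha cells. These head-to-head models differed in size of effect, since the second had ratios of 14.9 and 11.01. The third, on the minus strand from 229684 to 230997, overlaps the second by 220 bp and stood at 566, 359 and 303 in a cells, at 352, 248 and 254 in alpha cells, and at 16.9, 19.0 and 23.7 in a/alpha cells. In all, 4 of the 61 members (6.56%) overlapped another model on the opposite strand, against 2.99% of all models, and their counts are uncertain, the more so as the strand counted is not settled.

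Neighbouring members were found elsewhere too. There were 9 pairs of members next to each other, which took in 17 of the 61, where 1.18% of all models were members. They include the overlapping chromosome C models described above, whose counts are uncertain. On chromosome D the abundant model from 991105 to 992754 lies head to head with the member from 993842 to 994645, 1087 bp apart. That neighbour stood at 857, 824 and 723 normalised counts in a cells, at 748, 562 and 672 in alpha cells, and at 253, 357 and 284 in a/alpha cells. Its ratios of 2.63 and 2.18 were far under the 17.8 and 15.9 of its partner.

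On chromosome F the plus-strand model from 1112265 to 1112564, of 300 bp coding length, ends 39 bp from the end of the minus-strand member from 1112604 to 1113203. The plus-strand model stood at 271, 387 and 385 normalised counts in a cells, at 311, 342 and 464 in alpha cells, and at 25.3, 19.6 and 31.0 in a/alpha cells, with ratios of 10.1 and 10.8. Its partner stood at 284, 308 and 392 in a cells, at 307, 361 and 389.6 in alpha cells, and at 135, 158 and 171 in a/alpha cells, with ratios of 2.05 and 2.20. The haploid levels of this pair were alike while the a/alpha levels were not. Beyond it, 128 bp away and head to head with the partner, the model from 1113332 to 1114375 had ratios of 2.02 and 1.96 and just missed the limit.

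Other pairs lay at weaker ratios. On chromosome G the models from 61763 to 63520 and from 63745 to 64071 lie head to head with 224 bp between them, with ratios of 2.53 and 2.17 for the minus-strand and 2.26 and 3.01 for the plus-strand model. On chromosome E the models from 7433 to 7645 and from 7910 to 8425 lie end to end, with ratios of 3.48 and 2.06 and of 4.25 and 2.92. The second of these stood at 86.6, 73.5 and 51.3 normalised counts in a cells, at 52.8, 42.0 and 41.0 in alpha cells, and at 8.44, 9.81 and 8.57 in a/alpha cells. On chromosome B the models from 356529 to 356886 and from 359144 to 359323 lie on 1 strand, 2257 bp apart, with ratios of 3.41 and 2.21 and of 3.65 and 5.99.

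Neighbours that were not members lay near an even ratio. The 103 neighbouring models that were not members had median ratios of 1.02 for a and 0.975 for alpha cells, and 0 of them had both ratios at or above 2. Over all models 74 had both ratios at or above 2, and 61 of these were members. The count of 0 thus follows largely from leaving members out. A member had a head-to-head neighbour upstream in 38 of 61 cases (62.3%), against 56.5% of all models. Of those 38 neighbours 6 were members, which are the models of 3 such pairs, while 1.18% of all models were members. Over the 38 the medians were 1.02 for a and 1.13 for alpha cells. The leading chromosome G model is an example, since its neighbour 608 bp away had ratios of 0.949 and 0.896. Among those that departed from this was the chromosome H model from 1736625 to 1737671, as its neighbour 920 bp away had ratios of 2.61 and 1.94. Another was the chromosome F member from 1112604 to 1113203, whose neighbour 128 bp away had ratios of 2.02 and 1.96.

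**Figure D3:**
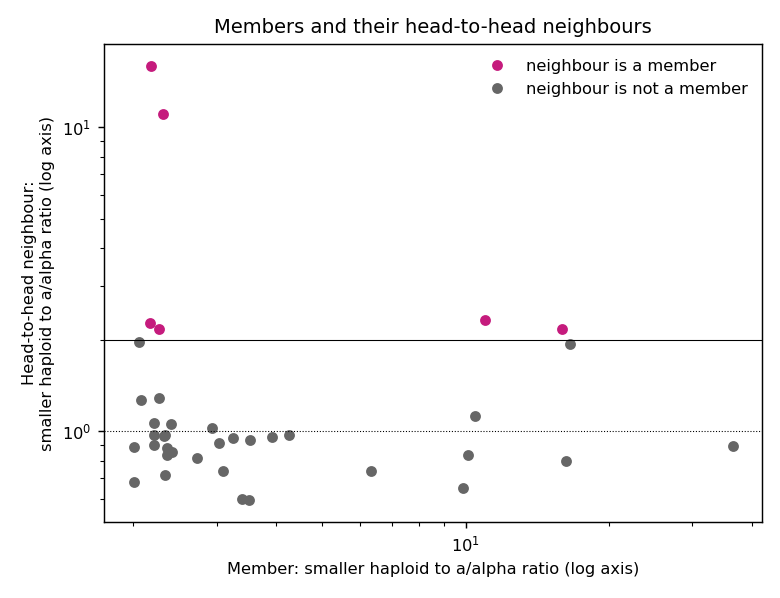
Smaller haploid to a/alpha ratio of the 38 members with a head-to-head neighbour upstream (x axis) and of that neighbour (y axis), both axes logarithmic, with the ratio of 2 as a solid and of 1 as a dotted line. The 6 pink points are neighbours that are members themselves, and most of the grey points lie around 1, also for members with ratios over 10.

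Where the models lie was not used to choose them, and is given as counts with no test. Members lay on all 8 chromosomes, from 3 on chromosome A, or 0.664% of its models, to 10 on chromosome C, or 1.74%. All 10 of the chromosome C members lay in its first 1 Mb, which held 16.4% of members and 8.92% of all models. Chromosome C as a whole held 575 of the 5189 models, so most of its models lie in that stretch too. Within 30 kb of the outermost model of a chromosome lay 7 members (11.5%), against 3.35% of all models. Coding length was under 400 bp in 13 members (21.3%), against 8.52% of all models, and above 2000 bp in 7 (11.5%), against 23.5%. Of the 13 short models 2 had a smaller ratio of 5 or more, as did 17 of all 61 members. Several coding parts were found in 7 members (11.5%) and in 13.7% of all models.

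The stretch upstream of a member was longer than usual. Toward a head-to-head neighbour the median gap between coding parts was 785 bp for members and 450 bp for all models. Toward an upstream model on the same strand it was 874 bp for members and 527 bp for all models. The deposited table gives coding parts alone, so these gaps include untranslated ends.

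Read per kb of coding length, the members' median was 298 normalised counts in haploid cells, where a and alpha means were averaged, and 64.3 in a/alpha cells. Over all models the medians were 209 in haploid cells and 202 in a/alpha cells. Members therefore sat near the middle of the genome in haploid cells and under it in a/alpha cells. Their haploid levels per kb reached from 7.98 to 27467. After the chromosome D model, at 27467, the highest were a 312 bp model on chromosome G from 217435 to 217746, at 9295, and a chromosome E model from 258914 to 259795, at 3081.

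Those abundant models stayed high in a/alpha cells. The chromosome G model stood at 2041, 2929.8 and 2806 normalised counts in a cells, at 2486, 2927 and 4210.5 in alpha cells, and at 1156, 951 and 1096 in a/alpha cells. The chromosome E model stood at 2393, 2325 and 2076 in a cells, at 2192, 3915 and 3405 in alpha cells, and at 886, 1318 and 1044 in a/alpha cells. Neither was near silence, with a/alpha means at 36.8% and 39.9% of the haploid means.

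The plus-strand model on chromosome H from 440075 to 440485 reached 2324 normalised counts per kb in haploid cells, from 658, 1231 and 1238 normalised counts for a cells and 616, 908 and 1080.5 for alpha cells. In a/alpha cells it stood at 279, 229 and 277. Replicate 1 was its lowest library in both haploid types. Another on chromosome H, from 1934171 to 1935298, stood at 3124, 2472 and 2497 in a cells, at 1728, 1697 and 1323 in alpha cells, and at 422, 402 and 364 in a/alpha cells. There the 3 cell types did not overlap at all.

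How low a member fell in a/alpha cells varied widely. The a/alpha mean was 24.1% of the haploid mean at the median, with a range from 0.934% to 46.0%. It was under 5% in 8 members and under 10% in 18. In normalised counts the a/alpha mean was under 10 in 9 members and under 100 in 41, and the highest was 2681. Of all members, 7 had a count of 0 in an a/alpha library, which was replicate 1 each time. In that library 19 members held 3 counts or fewer, so their spread in a/alpha cells is poorly known. The lowest haploid library exceeded the highest a/alpha library by a ratio (values plus 10) of at least 2 in 34 members, and by under 1.2 in 2.

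Within the limits set on it, the balance between the haploid types leaned toward a cells. The a to alpha ratio was above 1 in 44 members and under 1 in 17, and it exceeded 1.5 in 12. With TMM factors the split was 45 and 16, and with upper-quartile factors 49 and 12. Upper-quartile factors moved the median log2 a to alpha ratio of all models to 0.15, against 0.03 with the median-of-ratios factors. Among the 17 members with a smaller ratio of 5 or more, 15 were above 1. All 3 a libraries lay above all 3 alpha libraries in 18 members, against 17% of all models, and all alpha above all a libraries in 5, against 16.6%.

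The most uneven members toward a cells were on chromosomes F, E and D. The plus-strand chromosome F model from 438495 to 440156 stood at 2778, 2149 and 2187 normalised counts in a cells, at 1382, 1183 and 1047 in alpha cells, and at 169, 106 and 123 in a/alpha cells. The chromosome E model from 12237 to 14804 stood at 1135, 952 and 971 in a cells, at 509, 495 and 571 in alpha cells, and at 228, 175 and 242 in a/alpha cells. Both were stepped, with a cells highest, alpha cells between and a/alpha cells lowest. A 432 bp chromosome D model from 1135956 to 1136487 did the same at low level, at 54.4, 81.6 and 88.8 in a cells, 28.7, 35.9 and 44.6 in alpha cells, and 16.9, 2.31 and 11.2 in a/alpha cells.

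Toward alpha cells the extremes lay on chromosomes E, B and G. The chromosome E model from 1287765 to 1291163 stood at 61.8, 107 and 89.4 normalised counts in a cells, at 154, 146 and 148 in alpha cells, and at 8.44, 39.3 and 37.6 in a/alpha cells. The 180 bp chromosome B model from 359144 to 359323 stood at 135, 192 and 142 in a cells, at 199.98, 288 and 301 in alpha cells, and at 59.1, 21.9 and 25.7 in a/alpha cells. In both, the alpha libraries lay above the a libraries. The chromosome G model from 63745 to 64071, with a ratio of 0.752, stood at 336, 461 and 502 in a cells, at 420.3, 567 and 751 in alpha cells, and at 203, 161 and 194 in a/alpha cells, and its haploid types overlapped.

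Libraries with the same replicate number moved together in the haploid types. All 10 members of chromosome C were highest in replicate 1 of both a and alpha cells. Their median log2 deviation from the cell type's mean was 0.66, -0.27 and -0.37 in a replicates 1, 2 and 3 and 0.47, -0.24 and -0.16 in alpha cells, against -0.11, 0.08 and 0.11 in a/alpha cells. The other 51 members were mixed. Replicate 1 was lowest for 30 and highest for 16 of them in a cells, and lowest for 30 and highest for 13 in alpha cells. Without a replicate 1, 9 of the 10 chromosome C members met the rule, and without alpha replicate 1, or without both, 6 did. Such counts are not given here for non-members, whether near these 10 members or elsewhere. Whether the replicate 1 pattern is particular to members was therefore not tested, for chromosome C or for the other 51. The part of these libraries in the chromosome C values was not tested either.

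**Figure D4:**
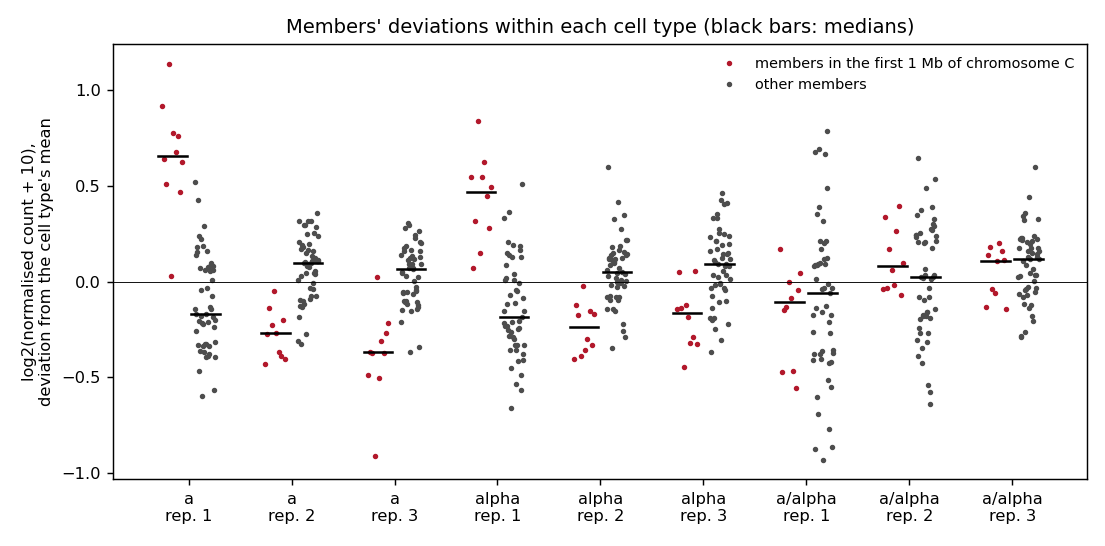
Deviation of log2(normalised count + 10) from the mean of the member's own cell type (y axis) in each of the 9 libraries (x axis), for the 10 members in the first 1 Mb of chromosome C (red) and the other 51 (grey), with medians as black bars. The red median stands above the grey one in replicate 1 of a and of alpha cells (0.66 and 0.47) and below it in their replicates 2 and 3, and the red and grey medians lie close together in a/alpha cells.

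Spread between replicates was slightly larger for members than for models at large. The median SD of log2(normalised count + 10) for members was 0.24 across the a libraries, 0.25 across the alpha and 0.27 across the a/alpha libraries, and 0.21, 0.21 and 0.20 for all models, in the same order (n = 3 libraries each).

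Whether the choice carries over to libraries it did not use was read by applying the rule to 2 replicates of each cell type and taking the ratios in the replicate left out. Chosen without replicate 1, 69 models qualified, 48 of them members. In replicate 1 alone 41 of the 69 (59.4%) had both ratios at or above 2, against 3.51% of all models. Chosen without replicate 2, 57 qualified, 54 of them members, and in that replicate 40 of the 57 (70.2%) did so, against 1.64%. Without replicate 3 there were 60, 55 of them members, and 45 of the 60 (75.0%) did so, against 1.46%. Both ratios exceeded 1 in 58 of 69, 57 of 57 and 60 of 60 models, against 36.7%, 35.8% and 33.7% of all models. The median ratios read this way were 2.88, 3.86 and 3.17 for a and 2.19, 3.07 and 3.21 for alpha cells. Replicate 1, which holds the shallow a/alpha library, gave the lowest share. The size factors were those of all 9 libraries, and the libraries of a cell type come from 1 strain. Both ratios of a replicate share its a/alpha library, and a and alpha libraries of 1 number moved together. The 2 ratios are therefore not independent of each other.

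**Figure D5:**
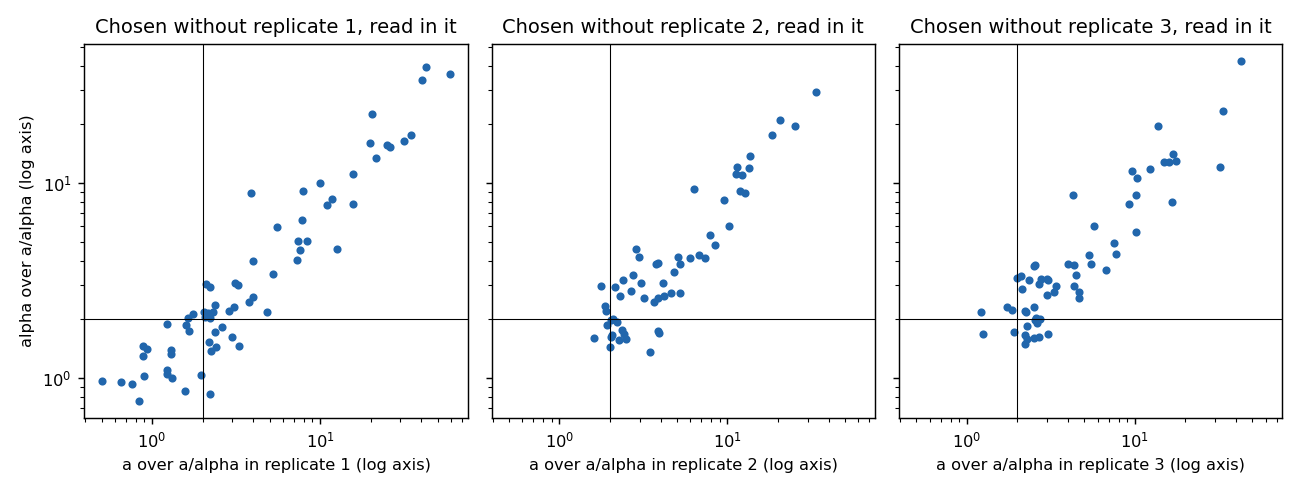
Ratios of a (x axis) and alpha (y axis) over a/alpha cells, values plus 10 and both axes logarithmic, read in 1 replicate for models chosen in the other 2, with lines at the ratio of 2. In the panels for replicates 2 and 3 every point lies above 1 on both axes, and in the panel for replicate 1, 11 of 69 points do not.

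Leaving out a single library kept between 49 and 61 of the 61 members. The fewest, 49, were kept without a/alpha replicate 1, when 10 other models joined, and all 61 were kept without a/alpha replicate 3, when 10 joined as well. Kept under each of the 9 omissions were 38 members. Of the 28 with a smaller ratio of at least 3, 3 were not.

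At the limit itself the values ran on without a break. Just inside were the chromosome H model from 403615 to 404367, the chromosome D model from 870589 to 871497 and the chromosome B model from 796465 to 797055, with smaller ratios of 2.00, 2.00 and 2.01. Just outside were the chromosome F model from 1113332 to 1114375 at 1.96, the chromosome C model from 537764 to 538357 at 1.96 and the chromosome A model from 670770 to 672086 at 1.95. The chromosome C model lies next to the member from 539308 to 542772, 950 bp away on the same strand. The chromosome H model just inside stood at 175, 219 and 216 normalised counts in a cells, at 153, 189.9 and 173 in alpha cells, and at 59.1, 93.5 and 89.6 in a/alpha cells. Another 13 models had both ratios at or above 2 and were outside the a to alpha limits, 11 of them above 2 and 2 under 0.5. The nearest of these, on chromosome H from 1116396 to 1118042, had an a to alpha ratio of 2.03.

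A fit of all models by edgeR's quasi-likelihood test used the same contrasts as the choice, so its calls on members add no support. It called 61 of 61 members higher in a than in a/alpha cells, where 7.32% of all tested models were called higher, and 60 of 61 higher in alpha cells, where 6.55% were. The exception was the chromosome F model from 242683 to 243597, at 89.9, 179 and 160.1 normalised counts in a cells, and 96.3, 142 and 152 in alpha cells, against 25.3, 83.1 and 70.5 in a/alpha cells. The log2 fold change in alpha cells was 0.88 ± 0.31 (SE), with a Benjamini-Hochberg adjusted p of 0.0842. With the replicate number as a block, 61 of 61 members were called higher in each haploid type than in a/alpha cells. Of 5042 tested models, 627 were then called higher in a and 823 in alpha cells. The replicate numbers do not pair haploid with a/alpha libraries. The call for a over alpha cells reached 12 of 61 members, a share close to the 17.9% of all models. Of the 12, 10 were higher in a cells, against 8.05% of all models, and 2 lower, against 9.9%. With the replicate number as a block, 778 of 5042 models were called higher in a cells and 797 lower, or 31.2% in either direction. Of the members 26 were then called, 24 higher and 2 lower. With upper-quartile factors 17 were higher in a cells, against 12.5% of all models, and 0 lower, against 7.32%. Leaving out a replicate 2, alpha replicate 2 or alpha replicate 3 brought the calls to 7, 5 and 6 members, against 11.6%, 9.59% and 8.44% of all models, in that order.

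In the authors' deposited tables, made from the same series, the members had log2 fold changes from 1.05 to 6.38 for a and from 0.94 to 5.84 for alpha over a/alpha cells. An adjusted p under 0.05 was given there to 61 members for a cells, against 13.4% of the models with a value in the authors' deposited table, and to 58 for alpha cells, against 10.8%. The shares over all models count both directions, while every member was higher in haploid cells. These contrasts are those that chose the members, so the authors' calls on members add no support.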

How the data were processed

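Poly(A) RNA of 9 libraries was sequenced as single reads of 65 bp from a strand-marking kit, per the labels' protocols. The authors deposited raw counts per gene model; per the file headers, featureCounts 2.0.1 counted reads over coding parts with strand setting 1 on alignments whose paths name fastp and STAR. The opposite setting is usual for such a kit, so the counts may be of the opposite strand, which the table does not settle. Of 14 alignments in that header, 5 were not used here. The authors also deposited comparison tables with log2 fold changes with errors, a test score and p-values, and the submitters' processing notes name DESeq2.

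Members follow the rule in the text (Python 3.11.15). edgeR 4.0.16 in R 4.3.3 fitted all 9 libraries with TMM, filterByExpr and quasi-likelihood tests at a Benjamini-Hochberg adjusted p of 0.05 over 5042 models. DESeq2 1.42.0 was an alternative. The SE is the fold change over the root of F, which is approximate. The rule, and the fit of a and of alpha against a/alpha cells, were checked on simulated data. For the rule these held counting error only and effects well above its limit, so members near the limit were not covered. P-values measure the spread between these libraries, which column headers call biological replicates.

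Deviations of a and alpha libraries from their group means correlated by 0.75, 0.22 and 0.55 across models for numbers 1, 2 and 3, all above 0.1, so the numbers pair a with alpha libraries. The fit reported has no block, and the blocked calls are given beside it where they differ. With a/alpha libraries they did not, at -0.03 to 0.16. The members, lists and naming rule were chosen with earlier results of these data known. Named are the 10 members with the largest smaller ratio, the 6 highest per kb, the 4 most uneven each way, up to 10 next to or overlapping another model, and the 3 on each side of the limit. The partners of neighbouring members and the chromosome F model that missed a call were named after their values were seen. A list of Saccharomyces cerevisiae haploid-specific genes matched 0 models, since no file gives names.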

Additional observations from a re-analysis of the deposited data

Results flagged for a closer look

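The effect of the cell type relative to a/alpha cells differed between a and alpha cells for 12 members, by the a against alpha term of the edgeR fit at a Benjamini-Hochberg adjusted p under 0.05, where 17.9% of all models were called. That share of members was close to the share of all models. With the replicate number, which pairs a with alpha libraries, as a block, 778 of 5042 models were called higher in a cells and 797 lower. In either direction that was 31.2% of models, and 26 members were called, 24 higher and 2 lower in a cells. The choice of members bounds this ratio, so the size of these differences is limited by construction. In a cells 10 members were higher, with log2 differences (a minus alpha) of 1.06 for the chromosome D model from 1135956 to 1136487, 1.00 for chromosome F 438495 to 440156, 0.98 for chromosome E 961219 to 961914 and 0.98 for chromosome E 12237 to 14804. Smaller differences were 0.89 for chromosome B 295363 to 297054, 0.82 for chromosome F 20211 to 22076, 0.79 for chromosome H 1934171 to 1935298 and 0.72 for chromosome C 348996 to 350213. The smallest were 0.67 for chromosome G 653576 to 654133 and 0.61 for chromosome A 461875 to 462888. In alpha cells 2 members were higher, at -0.77 for chromosome E 1287765 to 1291163 and -0.73 for chromosome B 359144 to 359323. Neither was called with upper-quartile factors, from a and alpha libraries alone, or in 6 of 9 fits that left out a library. Each of the 12 differences had an SE between 0.15 and 0.34.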

How the results depend on the processing

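The number of members, 61, was 146 with a least ratio of 1.5 and 19 with a least ratio of 4, and it stayed between 41 and 77 under the other alternatives run. Leaving out libraries gave 55 to 71. The median log2 ratio of the members, 1.96 for a over a/alpha cells, was 2.16, 2.15 and 1.51 with 0, 1 and 30 added to the means, and 1.82 to 1.99 with a library left out. For alpha cells, at 1.59, it was 1.88, 1.84 and 1.44 with those values added, 1.51 with upper-quartile factors, and 1.49 to 1.72 with a library left out. Of 756 alternative log2 ratios of named members 0 reversed and 98 moved beyond the replicate SD.

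Models called for a against a/alpha cells, 652, numbered 334 to 1075 with a library left out, lowest without a replicate 2 and highest without a replicate 1. For alpha cells the 517 became 920 from those 2 groups alone, 824 with DESeq2, and 152 to 1172 with a library left out, lowest without a/alpha replicate 2 and highest without a replicate 1. Members called higher were then 58 to 61 for a and 48 to 61 for alpha cells. For a against alpha cells, 905 models became 427 to 1206 and 12 members became 5 to 13, with fewest models without alpha replicate 3 and fewest members without alpha replicate 2.

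With the replicate block, calls were 1213 for a and 1552 for alpha against a/alpha cells, whose numbers do not pair. For a against alpha cells 1575 of 5042 models (31.2%) were called, and 26 of 61 members. An alternative chosen after seeing the data used a and alpha libraries alone with the block. It called 2189 of 5021 tested models and 30 of 61 members. Causes of these shifts were not tested. In a/alpha replicate 1 depth limits any level under 25.3 normalised counts.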
